A study of Citrullus lanatus with 30 samples.

Results

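Gene expression in wild type (WT) watermelon flesh was compared between 18 and 10 days after pollination (DAP), with 3 RNA-seq libraries at each age. The members are the genes with a level of at least 1 TPM (a length-scaled share of the library's transcripts) in at least 3 of these 6 libraries, which were 14964 of the 22596 genes in the table, and 7632 genes were below that level. The study sampled flesh of Citrullus lanatus fruits of 2 genotypes, WT and a mutant that the labels call clnor, in 30 libraries taken at 10, 18 and 26 DAP and at 34 and 42 DAP. The clnor fruits at 18 and 10 DAP are shown beside WT as the same step in the other genotype. In both clnor groups replicate 3 stood apart for several genes, as described below. The labels name no allele, no treatment and no cultivar, and no gene in the table is described as NOR, so the mutated gene was not examined. Whether the 3 libraries of a group stem from different fruits is not stated. The p-values thus reflect only the spread among these libraries, possibly a technical one.

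Watermelon flesh grows first by cell division and then, for most of its volume, by cell expansion, in which large vacuoles fill with water and sugars. In its growing phase the young flesh is pale and firm, with active loosening of the cell wall by expansins and by enzymes that cut and rejoin xyloglucan. Colouring follows as plastids turn into chromoplasts and phytoene synthase feeds the carotenoid pathway, which in red flesh ends largely at lycopene. Sucrose builds up late, when sucrose phosphate synthase and alkaline alpha-galactosidase act on sugars delivered by the phloem, and watermelon, unlike tomato, ripens without a clear burst of ethylene.

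Between the 2 ages the transcripts of several of these processes differed. At 18 DAP phytoene synthase, sucrose phosphate synthase and a beta-amylase rose. The most abundant xyloglucan enzyme described here fell. So did 22 of 60 pectin genes (36.7%), 12 of 32 peroxidases and laccases (37.5%) and 15 of 41 sugar transporters (36.6%). Over all genes 16.7% fell, and most other members of these lists did not pass the test. Both abundant ACC oxidases, enzymes of the last step of ethylene synthesis, fell too, though neither call held when the 6 libraries were fitted alone. An ACC oxidase 1-like gene rose, from a mean of 141 TPM at 10 DAP to 306 TPM at 18 DAP. Its call held in the 6 libraries alone but not without 10 DAP replicate 1. Gibberellin 20-oxidase, a desiccation-related protein and an aquaporin were among the largest rises. Of 16 circadian clock genes, a list made after values were seen, 13 were called, against 35.3% of all genes. LHY and REVEILLE 8-like had little spread among the libraries of each age. Their means at 26 DAP lay below those at 10 DAP, so the high 18 DAP level was not kept there.

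Of the 14964 genes, 5286 (35.3%) were called changed at an adjusted p below 0.05, 2793 higher (18.7%) and 2493 lower (16.7%) at 18 DAP. The calls came from limma on log2(TPM + 1) with Benjamini-Hochberg adjustment over all 14964 genes, in a fit over all 30 libraries that shares 1 estimate of the spread. Of the called genes 2322 changed at least 2-fold, 961 higher and 1361 lower, and at 4-fold or more there were 207 higher and 437 lower. The larger changes were thus more often falls, while the median of all genes lay near 0 (log2 0.02). Fitted on the 6 libraries alone, with 4 residual degrees of freedom, 2571 genes (17.2%) were called, 1381 higher (9.23%) and 1190 lower (7.95%), and 2478 of them were also called over all 30. All log2 differences below are 18 minus 10 DAP on the log2(TPM + 1) scale, which understates the change of genes at low level, and each error is a standard error of that difference.

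The 3 libraries at 18 DAP did not lie at equal distance from 10 DAP. Their mean Spearman correlation with the 10 DAP libraries, across genes, was 0.879 for replicate 1, 0.816 for replicate 2 and 0.924 for replicate 3, against 0.967 to 0.971 for the 10 DAP libraries among themselves. The groups did not overlap for 6721 tested genes (44.9%), 3553 higher (23.7%) and 3168 lower (21.2%). Among the 4764 called genes whose 2 groups did not overlap, replicate 3 was the 18 DAP library nearest to the 10 DAP mean for 71.5% and replicate 2 the farthest for 64.3%. The median standard deviation of a gene was log2 0.30 at 18 DAP and 0.19 at 10 DAP. The calls numbered 2855 (1593 higher, 1262 lower) without 18 DAP replicate 2 and 6247 (3407 higher, 2840 lower) without 18 DAP replicate 3. They numbered 3438 (1727 higher, 1711 lower) without 10 DAP replicate 1. Without 18 DAP replicate 1 there were 4040 (1846 higher, 2194 lower). Without 10 DAP replicate 2 there were 4647 (2608 higher, 2039 lower), and without 10 DAP replicate 3 4242 (2162 higher, 2080 lower). List counts given below for fewer libraries stand against these totals of the 14964 genes, not against the 18.7% and 16.7% of the main fit. TPM keeps no sequencing depth, so the depth behind each library is unknown, and genes of a family share reads, so single members are less certain than the family.

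**Figure D1:**
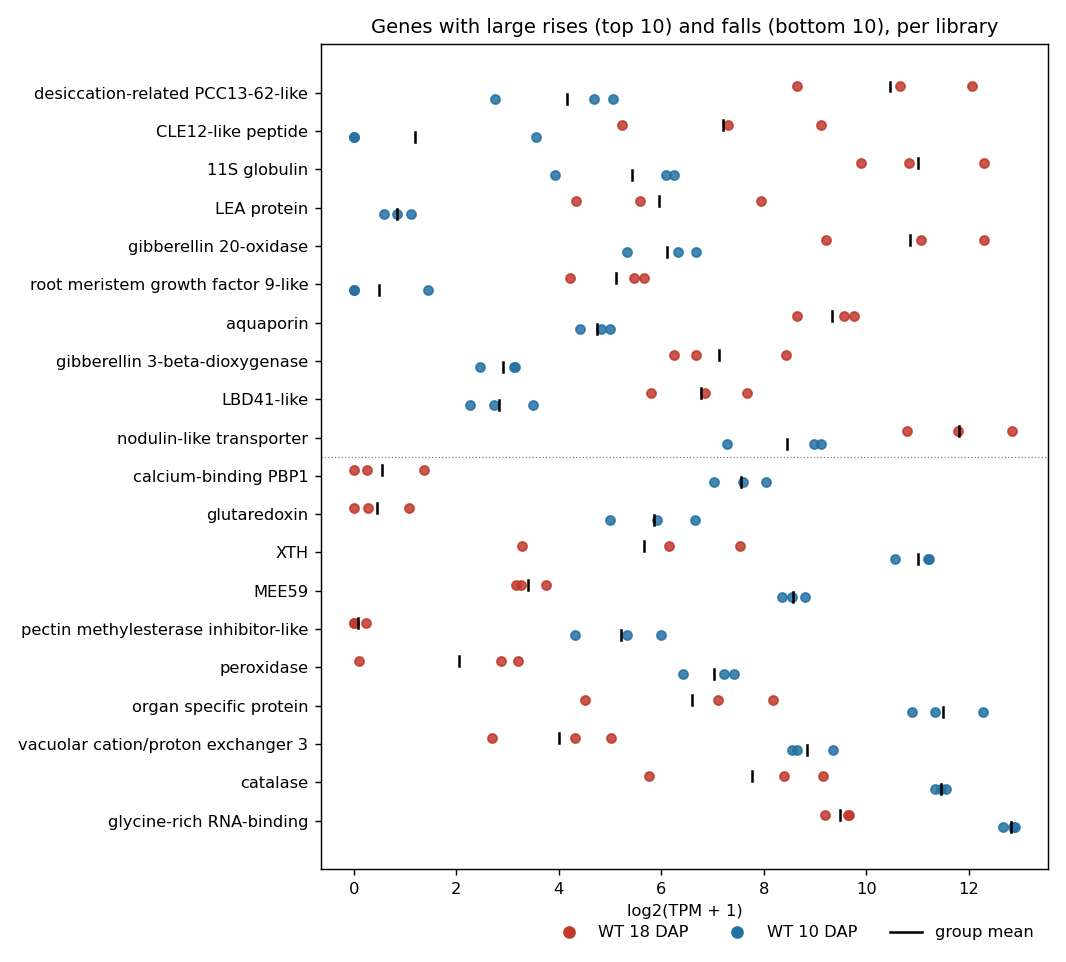
Level as log2(TPM + 1) on the horizontal axis for 10 genes with large rises (upper block) and 10 with large falls (lower block) in the 3 WT libraries at 18 DAP and the 3 at 10 DAP, 1 point per library, with a black bar at each group mean. The groups do not overlap for any gene shown, as the choice of genes required. The 18 DAP points spread more widely than the 10 DAP points for genes such as catalase (53.3 to 567 TPM at 18 DAP, against 2596 to 3011 TPM at 10 DAP).

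Among the largest rises, a desiccation-related protein PCC13-62-like gene (Cla97C06G113860) had 1619, 4284 and 402 TPM in replicates 1 to 3 at 18 DAP, against 5.70, 24.7 and 32.5 TPM at 10 DAP (log2 6.30 ± 1.03, adjusted p 0.00017). Proteins of this family are known from drying plant tissue. Every 18 DAP library stood more than 10 times above every 10 DAP library, although the 18 DAP values themselves spread widely. A late embryogenesis abundant protein gene (Cla97C10G202630), of a family that protects cells against water loss, had 47.2, 245 and 19.0 TPM at 18 DAP, against 0.50, 0.80 and 1.15 TPM at 10 DAP (log2 5.11 ± 0.77, adjusted p 7.2e-05). A CLE12-like gene (Cla97C01G006000), of a family of small signal peptides, had 156, 551 and 36.6 TPM at 18 DAP, against 0, 10.7 and 0 TPM at 10 DAP (log2 6.03 ± 1.20, adjusted p 0.00081). Its mean at 26 DAP was 1.44 ± 1.54 TPM (SD, n = 3), so the level at 18 DAP was not kept, whereas the desiccation-related gene had 1429 ± 273 TPM at 26 DAP. The 26 DAP libraries are given beside the others as levels only. An 11S globulin seed marker (Cla97C05G092030) had 1830, 5067 and 959 TPM at 18 DAP, against 14.3, 67.5 and 74.5 TPM at 10 DAP. Its 18 DAP libraries stood in the same order as those of the 3 genes above. That order is common here, since among called genes without overlap replicate 2 was farthest from 10 DAP for 64.3%. Replicate 3 was the nearest for 71.5%. Late embryogenesis abundant proteins are themselves counted among the seed markers below. The part of seed tissue in the rises of the 3 genes was not tested.

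A gene for gibberellin 20-oxidase (Cla97C05G089570), which makes precursors of active gibberellin, had 2143, 5019 and 593 TPM at 18 DAP, against 39.5, 78.7 and 102 TPM at 10 DAP (log2 4.75 ± 0.88, adjusted p 0.00044). A gibberellin 3-beta-dioxygenase 1-like gene (Cla97C09G164590), whose enzyme class makes the active hormone, had 344, 102 and 75.0 TPM at 18 DAP, against 4.49, 7.78 and 7.74 TPM at 10 DAP (log2 4.21 ± 0.95, adjusted p 0.0021). Both enzymes of consecutive steps were thus higher in every 18 DAP library, but the library with the highest level was replicate 2 for the first, as for the 11S globulin seed marker, and replicate 1 for the second. A gibberellin receptor GID1A gene (Cla97C08G145790) averaged 12.3 ± 2.16 TPM at 18 DAP and 6.34 ± 0.358 TPM at 10 DAP (SD, n = 3 each; log2 0.85 ± 0.18, adjusted p 0.0016). A DELLA protein gene (Cla97C09G167520), a repressor of the gibberellin response, averaged 29.5 ± 7.28 TPM at 18 DAP and 11.4 ± 1.85 TPM at 10 DAP (log2 1.28 ± 0.28, adjusted p 0.0019). These 4 were the members that rose among 29 tested genes named for gibberellin metabolism and response, while 6 fell. The shares were 13.8% and 20.7%, against 18.7% and 16.7% of all genes. The median of the list was log2 -0.73. Of the falling members, a gibberellin 3-beta-dioxygenase 4 gene (Cla97C06G113150), chosen after its values were seen, averaged 1.42 ± 0.601 TPM at 18 DAP and 5.48 ± 1.09 TPM at 10 DAP (log2 -1.44 ± 0.36, adjusted p 0.0042). Without 18 DAP replicate 2, and also without 10 DAP replicate 1, the list had 4 rises and 2 falls, and without 18 DAP replicate 3 it had 5 and 10.

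An aquaporin gene (Cla97C04G075680), a water channel of the membrane, had 759.8, 866 and 399 TPM at 18 DAP, against 31.0, 27.1 and 20.4 TPM at 10 DAP (log2 4.58 ± 0.81, adjusted p 0.00031). At 26 DAP it averaged 11.6 ± 0.979 TPM, so 18 DAP stood above both neighbouring ages. Another channel, Aquaporin protein 25 (Cla97C10G197910), had 104, 55.5 and 214 TPM at 18 DAP, against 674, 712 and 629 TPM at 10 DAP (log2 -2.63 ± 0.44, adjusted p 0.00019). Of 23 aquaporin genes 3 rose and 7 fell (13% and 30.4%, against 18.7% and 16.7% of all genes). Their median was log2 -0.16, and 4 fell in the 6 libraries alone.

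In absolute terms the largest rises belonged to a few very abundant transcripts. A gene described as fibrous sheath CABYR-binding protein-like (Cla97C01G021030), a description from animal sperm that says little about its role in a plant, had 13240, 10543 and 8736 TPM at 18 DAP, against 3202, 4840 and 3925 TPM at 10 DAP (log2 1.44 ± 0.56, adjusted p 0.047). Its groups were well apart, but the call was lost when any single library other than 18 DAP replicate 3 was left out (adjusted p 0.0597 to 0.14), under upper-quartile scaling (0.0581) and under quantile normalization (0.0804). A metallothionein-like gene (Cla97C10G204330), for a small metal-binding protein, had 8436, 8124 and 11348 TPM at 18 DAP, against 3362, 4787 and 5209 TPM at 10 DAP (log2 1.07 ± 0.31, adjusted p 0.012, and 0.0711 without 10 DAP replicate 1). A nodulin-like transporter gene (Cla97C02G031010), of the major facilitator superfamily, had 3535, 7394 and 1769 TPM at 18 DAP, against 155, 506 and 552 TPM at 10 DAP (log2 3.35 ± 1.13, adjusted p 0.026), again in the library order of the 11S globulin seed marker. That call was lost without 18 DAP replicate 1 (adjusted p 0.0587), without 18 DAP replicate 2 (0.118) and without 10 DAP replicate 1 (0.117). S-adenosylmethionine decarboxylase (Cla97C05G093830), an enzyme of polyamine synthesis, averaged 4124 ± 790.2 TPM at 18 DAP and 2251 ± 240.2 TPM at 10 DAP (log2 0.86 ± 0.28, adjusted p 0.019), with adjusted p of 0.067 to 0.0798 without 18 DAP replicate 1, 18 DAP replicate 2 or 10 DAP replicate 1.

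The largest fall on the log2 scale was that of the calcium-binding protein PBP1 gene (Cla97C06G112040), whose Arabidopsis counterpart binds the kinase PINOID of auxin transport. It had 0.20, 0 and 1.59 TPM at 18 DAP, against 264, 192 and 129.8 TPM at 10 DAP (log2 -7.01 ± 0.84, adjusted p 8.3e-06). A vacuolar cation/proton exchanger 3 gene (Cla97C04G073640), of a family that moves calcium and other cations into the vacuole, had 31.2, 5.47 and 18.9 TPM at 18 DAP, against 400.2, 655 and 372 TPM at 10 DAP (log2 -4.84 ± 0.72, adjusted p 6.6e-05). At 26 DAP the first averaged 17.9 ± 5.44 TPM and the second 145 ± 54.1 TPM, above their 18 DAP means. A glutaredoxin gene (Cla97C09G168870), for a small redox protein, had 0.21, 1.10 and 0 TPM at 18 DAP, against 100, 31.0 and 59.6 TPM at 10 DAP (log2 -5.41 ± 0.77, adjusted p 4.7e-05). A DnaJ subfamily B member 8 gene (Cla97C01G006380), of the co-chaperones of heat shock protein 70, had 1.76, 0.96 and 0.52 TPM at 18 DAP, against 60.0, 47.0 and 57.7 TPM at 10 DAP (log2 -4.78 ± 0.52, adjusted p 2.2e-06), and 68.2 ± 7.15 TPM at 26 DAP. For these 4 genes the groups did not overlap, which the rule that chose them required.

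Among the falls in abundant transcripts, a defensin-like protein 1 gene (Cla97C01G007350), a small antimicrobial peptide, had 2498, 2006 and 4830 TPM at 18 DAP, against 10938, 11190 and 12197 TPM at 10 DAP (log2 -1.98 ± 0.35, adjusted p 0.00032). A pair of neighbouring organ specific protein genes, of unknown function, fell together. The first (Cla97C02G032070) had 344, 33.1 and 699.6 TPM at 18 DAP, against 6505, 2689 and 4506 TPM at 10 DAP (log2 -4.41 ± 0.81, adjusted p 0.00043). The second (Cla97C02G032080) averaged 149.7 ± 135 TPM at 18 DAP and 3161 ± 1610 TPM at 10 DAP (log2 -4.90 ± 0.79, adjusted p 0.00015). As similar neighbours they may share reads. Catalase (Cla97C08G152180), which breaks down hydrogen peroxide, had 336, 53.3 and 567 TPM at 18 DAP, against 2800, 2596 and 3011 TPM at 10 DAP (log2 -3.68 ± 0.61, adjusted p 0.00018). A thioredoxin gene (Cla97C03G056320) averaged 820.5 ± 580.3 TPM at 18 DAP and 2971 ± 592 TPM at 10 DAP (log2 -2.06 ± 0.41, adjusted p 0.00072). In catalase and in the first organ specific gene the order of the 18 DAP libraries was the same, with replicate 2 lowest and replicate 3 highest.

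Of 25 carotenoid genes 8 rose and 5 fell (32% and 20%, against 18.7% and 16.7% of all genes). Their median was log2 0.45. Early steps of the route to lycopene were among those that rose, while carotenoid isomerase, which gives all-trans lycopene, was not called. Phytoene synthase (Cla97C01G008760), the first enzyme of the pathway, had 126, 232 and 104 TPM at 18 DAP, against 26.1, 32.5 and 47.9 TPM at 10 DAP (log2 2.04 ± 0.37, adjusted p 0.00041). All 3 libraries at 18 DAP stood at more than 2-fold above the highest at 10 DAP. The next enzyme, phytoene desaturase (Cla97C07G142100), had 162, 139 and 124 TPM at 18 DAP, against 65.5, 93.0 and 82.3 TPM at 10 DAP (log2 0.82 ± 0.20, adjusted p 0.0040). The 15-cis-zeta-carotene isomerase (Cla97C07G142750) had 62.8, 69.7 and 51.3 TPM at 18 DAP, against 22.1, 35.4 and 27.5 TPM at 10 DAP (log2 1.10 ± 0.24, adjusted p 0.0018). Along this route the size of the rise was largest at the first enzyme. At 26 DAP phytoene synthase averaged 89.1 ± 12.1 TPM, the desaturase 45.4 ± 8.55 TPM and the isomerase 35.8 ± 2.42 TPM (SD, n = 3). These means lay below those at 18 DAP, and that of the desaturase also below its 10 DAP mean. At 34 DAP the means were 281, 109 and 64.4 TPM in the same order.

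Zeta-carotene desaturase (Cla97C06G118930) averaged 55.9 ± 1.03 TPM at 18 DAP and 39.4 ± 7.22 TPM at 10 DAP (log2 0.51 ± 0.18, adjusted p 0.034), with an adjusted p of 0.0765 in the 6 libraries alone and of 0.0794 to 0.192 without 18 DAP replicate 1, 18 DAP replicate 2 or 10 DAP replicate 1. Carotenoid isomerase (Cla97C10G200950), which gives all-trans lycopene, averaged 21.5 ± 0.953 TPM at 18 DAP and 19.0 ± 1.5 TPM at 10 DAP (log2 0.17 ± 0.12, adjusted p 0.30), and its groups overlapped. Past lycopene, lycopene beta-cyclase (Cla97C04G070940) averaged 29.3 ± 1.45 TPM at 18 DAP and 20.9 ± 2.83 TPM at 10 DAP (log2 0.48 ± 0.13, adjusted p 0.0075, but 0.0719 in the 6 libraries alone and 0.0615 without 10 DAP replicate 1). Zeaxanthin epoxidase (Cla97C02G038200), a step of xanthophyll synthesis, had 75.0, 66.3 and 69.7 TPM at 18 DAP, against 35.2, 39.6 and 44.6 TPM at 10 DAP (log2 0.81 ± 0.19, adjusted p 0.0025). The most abundant gene of the pathway named here, a beta-carotene hydroxylase (Cla97C05G090480), had 441, 769 and 539 TPM at 18 DAP, against 308, 341 and 509.6 TPM at 10 DAP, with overlapping groups (log2 0.59 ± 0.24, adjusted p 0.062). The log2 differences of the cyclase, the epoxidase and the hydroxylase were smaller than that of phytoene synthase, and these differences were not tested against each other.

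Carotenoid cleavage dioxygenase 1 (Cla97C09G166380), which cuts carotenoids into volatile fragments, had 122, 162 and 86.8 TPM at 18 DAP, against 33.5, 52.2 and 39.3 TPM at 10 DAP (log2 1.52 ± 0.29, adjusted p 0.00054). The members that fell included second copies of rising enzymes. Phytoene synthase 3 (Cla97C07G137500) had 13.7, 6.48 and 14.6 TPM at 18 DAP, against 15, 17.9 and 21.0 TPM at 10 DAP (log2 -0.65 ± 0.24, adjusted p 0.037), a call lost in the 6 libraries alone (0.175) and without 18 DAP replicate 2 (log2 -0.31, 0.321), 10 DAP replicate 2 (0.0746) or 10 DAP replicate 3 (0.135). A gene described as chloroplastic/chromoplastic 15-cis-phytoene desaturase (Cla97C10G198770) had 16.9, 5.66 and 71.6 TPM at 18 DAP, against 117, 79.4 and 92.4 TPM at 10 DAP (log2 -2.22 ± 0.64, adjusted p 0.010), a call lost in the 6 libraries alone (0.0987) and without 18 DAP replicate 2 (log2 -1.41, 0.106). A 9-cis-epoxycarotenoid dioxygenase (Cla97C07G137780), the enzyme that commits carotenoids to abscisic acid, had 14.3, 2.22 and 15.8 TPM at 18 DAP, against 43.2, 49.8 and 56.3 TPM at 10 DAP (log2 -2.43 ± 0.49, adjusted p 0.00087). A second dioxygenase of that class (Cla97C01G024630) lay the other way, with 17.8, 47.7 and 9.80 TPM at 18 DAP, against 7.35, 3.89 and 7.02 TPM at 10 DAP (log2 1.64 ± 0.67, adjusted p 0.059, and 0.0226 without 18 DAP replicate 3). For the carotenoid list the counts were 5 rises and 1 fall in the 6 libraries alone, 7 and 1 without 18 DAP replicate 2, 5 and 3 without 10 DAP replicate 1, and 9 and 3 without 10 DAP replicate 3.

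**Figure D2:**
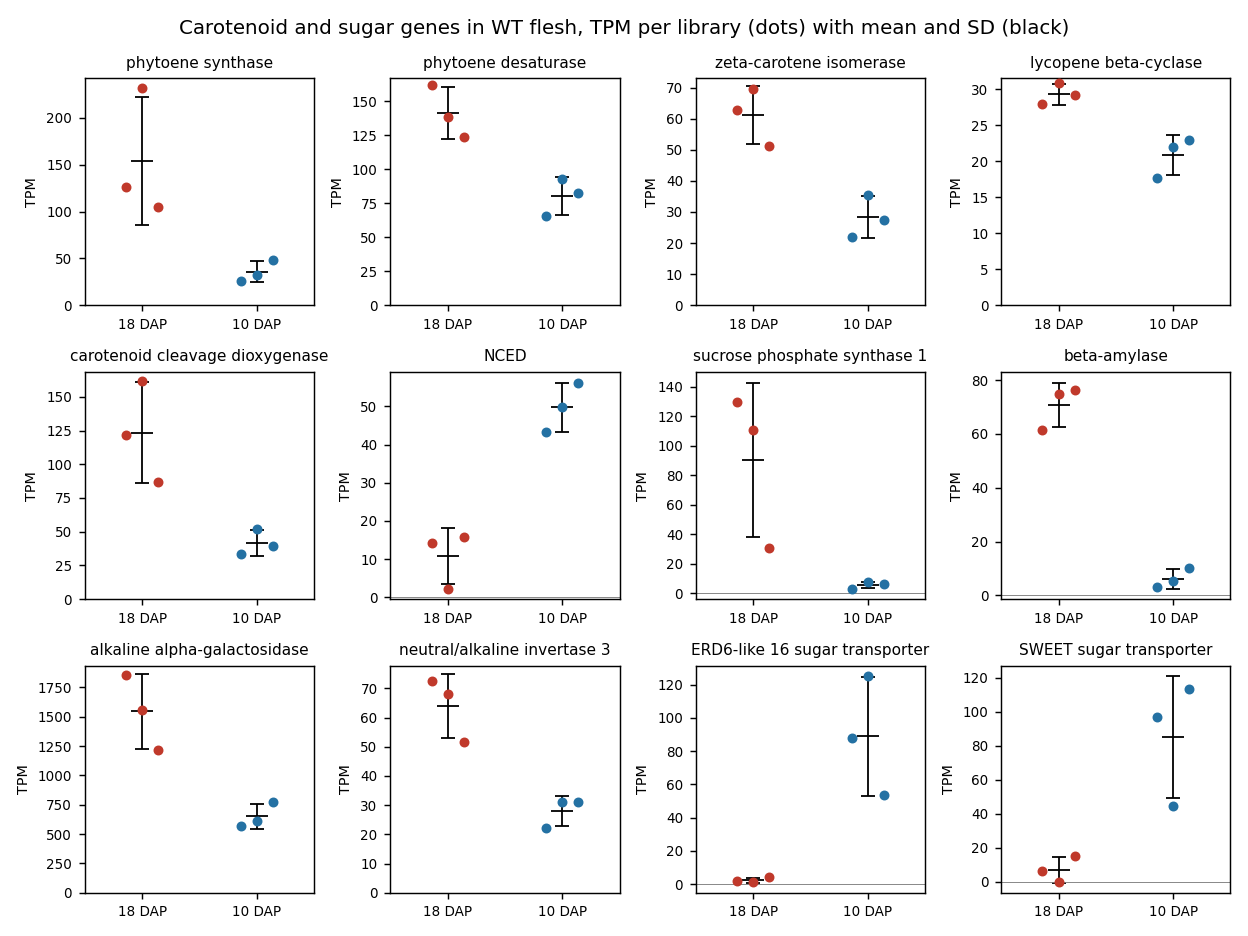
TPM (linear axis from 0) of carotenoid genes and of sugar genes in the 3 WT libraries at 18 DAP and the 3 at 10 DAP, 1 point per library, with the mean and standard deviation in black. The groups do not overlap in any panel, phytoene synthase stands at 104 to 232 TPM at 18 DAP against 26.1 to 47.9 TPM at 10 DAP, and the 9-cis-epoxycarotenoid dioxygenase (NCED) and both transporters are the panels in which 18 DAP is lower. Genes whose groups overlap, such as carotenoid isomerase and sucrose synthase, are not shown.

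In the plastid, 14 of 72 tested genes of light harvesting and photosynthesis rose and 5 fell (median log2 0.16). These are 19.4% and 6.94%, against 18.7% and 16.7% of all genes, so the share of rises was near that of all genes. A chlorophyll a-b binding protein gene (Cla97C01G024340) had 53.3, 11.8 and 105 TPM at 18 DAP, against 2.48, 1.47 and 3.09 TPM at 10 DAP (log2 3.68 ± 0.78, adjusted p 0.0014). A second (Cla97C06G125710), chosen after its values were seen, averaged 36.4 ± 27.2 TPM at 18 DAP and 1.84 ± 0.340 TPM at 10 DAP (log2 3.43 ± 0.70, adjusted p 0.0010). Here replicate 3 was the highest 18 DAP library and replicate 2 the lowest, so these rises were largest in the library whose whole profile was nearest to 10 DAP. Magnesium-chelatase subunit H (Cla97C03G063290), of the first step committed to chlorophyll, had 7.55, 3.45 and 4.43 TPM at 18 DAP, against 0.56, 1.03 and 0.81 TPM at 10 DAP (log2 1.72 ± 0.31, adjusted p 0.00032). Red chlorophyll catabolite reductase (Cla97C02G038280), an enzyme of chlorophyll breakdown, had 10.9, 2.91 and 14.1 TPM at 18 DAP, against 34.9, 33.3 and 36.5 TPM at 10 DAP (log2 -2.01 ± 0.35, adjusted p 0.00024). A Rubisco small chain gene (Cla97C05G104530), chosen after its values were seen, averaged 192 ± 48.2 TPM at 18 DAP and 43.4 ± 13.0 TPM at 10 DAP (log2 2.14 ± 0.48, adjusted p 0.0020). The list had 9 rises and 11 falls without 18 DAP replicate 3. It had 20 and 4 without replicate 2, and 9 and 4 without 10 DAP replicate 1. The excess of rises over falls in this list was therefore not seen without 18 DAP replicate 3.

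Of 61 genes of sucrose, raffinose and starch metabolism 20 rose and 9 fell (median log2 0.14). Their shares were 32.8% and 14.8%, against 18.7% and 16.7% of all genes. Sucrose phosphate synthase 1 (Cla97C06G117750), which makes the precursor of sucrose, had 129.6, 111 and 31.0 TPM at 18 DAP, against 3.18, 7.48 and 6.61 TPM at 10 DAP (log2 3.59 ± 0.56, adjusted p 0.00011). A beta-amylase (Cla97C06G117180), which cuts maltose from starch, had 61.4, 74.7 and 76.4 TPM at 18 DAP, against 3.11, 5.25 and 10.3 TPM at 10 DAP (log2 3.43 ± 0.41, adjusted p 8.3e-06). For the amylase the 18 DAP libraries lay close together, whereas for the synthase replicate 3 was well below the other two, though above every 10 DAP library. At 26 DAP both were back near the 10 DAP level, at 10.8 ± 2.36 and 6.61 ± 3.97 TPM.

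The alkaline alpha-galactosidase gene with the highest level of these (Cla97C04G070460), described as a seed imbibition protein, had 1859, 1560 and 1220 TPM at 18 DAP, against 572, 614 and 771 TPM at 10 DAP (log2 1.23 ± 0.21, adjusted p 0.00022). Alpha-galactosidases release galactose from raffinose and stachyose, the sugars that cucurbits carry in the phloem. A second alpha-galactosidase (Cla97C07G133360) averaged 515 ± 100.1 TPM at 18 DAP and 273 ± 66.6 TPM at 10 DAP (log2 0.93 ± 0.24, adjusted p 0.0053). Yet another (Cla97C11G218670) averaged 403 ± 44.0 TPM at 18 DAP and 458 ± 62.9 TPM at 10 DAP with overlapping groups (log2 -0.18 ± 0.29, adjusted p 0.65). A pair of neutral/alkaline invertases, which split sucrose in the cytosol and organelles, rose. One (Cla97C05G103380) averaged 64.0 ± 11 TPM at 18 DAP and 28.0 ± 5.17 TPM at 10 DAP (log2 1.16 ± 0.19, adjusted p 0.00014), and the other (Cla97C02G040560) averaged 36.2 ± 2.13 TPM at 18 DAP and 20.4 ± 3.32 TPM at 10 DAP (log2 0.81 ± 0.16, adjusted p 0.00065). Sucrose synthase (Cla97C03G064990), which can split or make sucrose, had 202, 184 and 229 TPM at 18 DAP, against 158, 183 and 209 TPM at 10 DAP, and its groups overlapped (log2 0.17 ± 0.29, adjusted p 0.68).

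In starch metabolism, isoamylase 2 (Cla97C09G169430), known from Arabidopsis as a partner of the enzyme that trims branches of starch, had 82.3, 75.4 and 19.7 TPM at 18 DAP, against 4.61, 15.4 and 10.2 TPM at 10 DAP (log2 2.33 ± 0.59, adjusted p 0.0045, and 0.0521 in the 6 libraries alone). A pair of genes for glucose-1-phosphate adenylyltransferase, the enzyme that makes the sugar donor of starch, moved in opposite directions. The more abundant (Cla97C02G029600) averaged 149 ± 30.6 TPM at 18 DAP and 76.6 ± 5.70 TPM at 10 DAP (log2 0.93 ± 0.29, adjusted p 0.017, and 0.0776 without 18 DAP replicate 1). The other (Cla97C05G100180) averaged 14.5 ± 3.54 TPM at 18 DAP and 33.2 ± 5.81 TPM at 10 DAP (log2 -1.15 ± 0.26, adjusted p 0.0021). The sugar metabolism list had 10 rises and 6 falls in the 6 libraries alone, 12 and 10 without 18 DAP replicate 1, and 12 and 5 without 18 DAP replicate 2.

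The sugar transporter genes that changed mostly fell, with 1 rise and 15 falls among 41 tested genes. Their shares were 2.44% and 36.6%, against 18.7% and 16.7% of all genes. The median was log2 -0.15 and lay between -0.18 and 0.04 under the 3 other scalings. An ERD6-like 16 sugar transporter (Cla97C06G115060), of a family that moves monosaccharides across membranes, had 1.91, 1.35 and 4.07 TPM at 18 DAP, against 88.1, 125 and 53.7 TPM at 10 DAP (log2 -4.70 ± 0.76, adjusted p 0.00015). An ERD6-like 7 gene (Cla97C07G128370) averaged 11.1 ± 4.16 TPM at 18 DAP and 30.0 ± 5.78 TPM at 10 DAP (log2 -1.40 ± 0.24, adjusted p 0.00026). Of the SWEET genes, for carriers that let sugars pass down their gradient, one (Cla97C03G055130) had 6.27, 0.07 and 15.2 TPM at 18 DAP, against 96.6, 44.7 and 114 TPM at 10 DAP (log2 -3.99 ± 1.04, adjusted p 0.0055, and 0.0591 without 18 DAP replicate 2). Another (Cla97C03G067610) had 53.9, 29.4 and 38.6 TPM at 18 DAP, against 22.5, 14.9 and 13.4 TPM at 10 DAP, and did not pass the test over 30 libraries (log2 1.21 ± 0.52, adjusted p 0.073), though it did in the 6 libraries alone (0.036). The list had 1 rise and 9 falls in the 6 libraries alone, 0 and 8 without 18 DAP replicate 2, 0 and 9 without 10 DAP replicate 1, and 4 and 14 without 18 DAP replicate 3. No gene rose without 18 DAP replicate 1 or 10 DAP replicate 3, with 11 and 13 falls. The nodulin-like transporter described above is not part of it.

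Among genes that loosen the wall, of 35 expansin and xyloglucan endotransglucosylase genes 2 rose and 17 fell, with a median of log2 -1.03. Their shares were 5.71% and 48.6%, against 18.7% and 16.7% of all genes. A xyloglucan endotransglucosylase/hydrolase (Cla97C06G122600), which cuts and rejoins xyloglucan chains, had 70.3, 8.68 and 183 TPM at 18 DAP, against 2391, 2368 and 1518 TPM at 10 DAP (log2 -5.35 ± 0.80, adjusted p 7.5e-05). The lowest 10 DAP library stood far above the highest 18 DAP library. A further pair of genes of the class, chosen after their values were seen, gave log2 -4.62 ± 0.98 (Cla97C09G183830, adjusted p 0.0014) and log2 -3.64 ± 0.69 (Cla97C08G147200, adjusted p 0.00057). The members that rose were at lower levels. A xyloglucan endotransglucosylase/hydrolase (Cla97C07G134510) had 28.8, 27.5 and 18.0 TPM at 18 DAP, against 7.05, 11 and 7.56 TPM at 10 DAP (log2 1.43 ± 0.25, adjusted p 0.00024). An expansin (Cla97C11G216050), of a family that loosens the wall at acid pH, had 5.76, 3.83 and 6.07 TPM at 18 DAP, against 0.43, 0 and 0.18 TPM at 10 DAP (log2 2.37 ± 0.31, adjusted p 1.9e-05). It was back at 0.123 ± 0.137 TPM at 26 DAP. The falls numbered 8 without 18 DAP replicate 2, as they did in the 6 libraries alone.

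Of 60 pectin genes 2 rose and 22 fell (3.33% and 36.7%, against 18.7% and 16.7% of all genes), with a median of log2 -0.66. A pectin methylesterase inhibitor-like gene (Cla97C05G089170), of proteins that block the removal of methyl groups from pectin, had 0, 0 and 0.18 TPM at 18 DAP, against 39.2, 62.9 and 18.9 TPM at 10 DAP (log2 -5.13 ± 0.35, adjusted p 2.8e-09). A pectinesterase 11-like gene (Cla97C02G047080), which removes those groups and was chosen after its values were seen, had 63.3, 13.9 and 88.6 TPM at 18 DAP, against 807, 788 and 939.9 TPM at 10 DAP (log2 -4.26 ± 0.64, adjusted p 7.8e-05). The esterase and the inhibitor-like gene were therefore both lower in every 18 DAP library. A pair of pectate lyases, which cut the pectin backbone, were low at both ages, and one (Cla97C04G076160) averaged 0.577 ± 0.502 TPM at 18 DAP and 4.93 ± 1.02 TPM at 10 DAP (log2 -1.96 ± 0.20, adjusted p 1.2e-06). The list had 1 rise and 12 falls without 18 DAP replicate 2, 1 and 17 without 10 DAP replicate 1, and 1 and 11 in the 6 libraries alone. Falls were fewer over all genes too, with 1262 of 14964 without 18 DAP replicate 2 and 7.95% in the 6 libraries alone.

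Of 45 genes of cellulose and wall polysaccharide synthesis 5 rose and 12 fell (median log2 -0.11). Their shares were 11.1% and 26.7%, against 18.7% and 16.7% of all genes. Counts were 4 and 6 without 18 DAP replicate 2, and 10 and 14 without 18 DAP replicate 3. They were 3 and 7 without 10 DAP replicate 1, and 3 and 10 without 18 DAP replicate 1 or 10 DAP replicate 3. A cellulose synthase (Cla97C10G195160) was among the rises, with 3.23, 14.4 and 3.88 TPM at 18 DAP, against 0.54, 0 and 0 TPM at 10 DAP (log2 2.56 ± 0.44, adjusted p 0.00024). Of 87 structural wall proteins 10 rose and 17 fell (median log2 -0.04, which lay between -0.10 and 0.01 under the other scalings). The share of falls, 19.5%, was near the 16.7% of all genes. The counts were 8 and 6 in the 6 libraries alone, 10 and 6 without 18 DAP replicate 2, 6 and 14 without 10 DAP replicate 1, and 9 and 11 without 10 DAP replicate 2. A hydroxyproline-rich glycoprotein (Cla97C02G047180) had 224, 300.2 and 174 TPM at 18 DAP, against 17.4, 49.3 and 26.0 TPM at 10 DAP (log2 2.96 ± 0.37, adjusted p 1.3e-05). A proline-rich protein DC2.15 gene (Cla97C10G187390) averaged 0.743 ± 0.659 TPM at 18 DAP and 44.2 ± 11.6 TPM at 10 DAP (log2 -4.73 ± 0.73, adjusted p 9.2e-05), and was at 0.0467 ± 0.0808 TPM at 26 DAP.

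Of 32 class III peroxidases and laccases, enzymes that cross-link wall phenolics, 1 rose and 12 fell (median log2 -0.75). Their shares were 3.12% and 37.5%, against 18.7% and 16.7% of all genes. The falls numbered 11 without 18 DAP replicate 2 and 8 in the 6 libraries alone. A peroxidase (Cla97C02G049940) had 6.27, 0.07 and 8.15 TPM at 18 DAP, against 169, 149 and 84.5 TPM at 10 DAP (log2 -4.97 ± 0.62, adjusted p 1.3e-05), and a second (Cla97C02G049930) averaged 0.50 ± 0.419 TPM at 18 DAP and 22.8 ± 13.2 TPM at 10 DAP (log2 -3.89 ± 0.31, adjusted p 2.9e-08). Of 71 phenylpropanoid and flavonoid genes 15 rose and 9 fell, shares of 21.1% and 12.7% near the 18.7% and 16.7% of all genes. Their median was log2 0.06 and reached -0.04 when a library was left out. The counts were 9 and 3 without 18 DAP replicate 2, 19 and 13 without replicate 3, and 9 and 5 in the 6 libraries alone. Caffeoyl-CoA O-methyltransferase (Cla97C11G219650), of monolignol synthesis and chosen after its values were seen, averaged 1092 ± 500.0 TPM at 18 DAP and 270.4 ± 74.3 TPM at 10 DAP (log2 1.96 ± 0.40, adjusted p 0.0010).

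**Figure D3:**
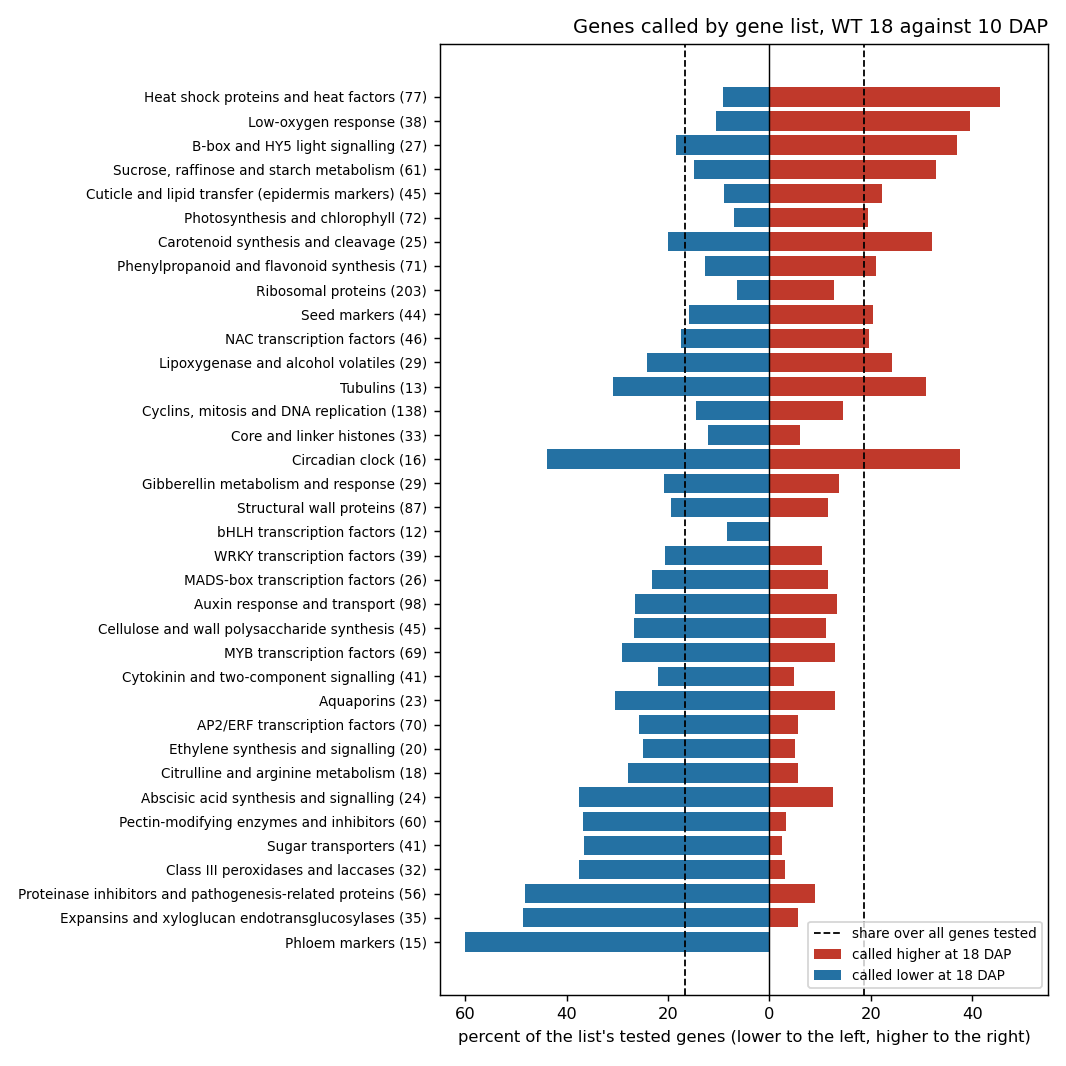
Percent of the tested genes of each gene list that were called higher (bars to the right) and lower (bars to the left) at 18 against 10 DAP in WT, with the number tested in brackets and the percentage over all 14964 genes as dashed lines (18.7% higher, 16.7% lower). The longest bar to the right is that of the heat shock genes (45.5%), and the longest to the left are those of phloem markers (60.0%), expansins and xyloglucan enzymes (48.6%) and proteinase inhibitors (48.2%).

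In ethylene synthesis, both abundant ACC oxidases were lower at 18 DAP. ACC oxidase 1 (Cla97C09G173910) had 277, 84.5 and 698 TPM at 18 DAP, against 1261, 729.6 and 1200 TPM at 10 DAP (log2 -2.02 ± 0.49, adjusted p 0.0037). It stayed called without 18 DAP replicate 2, at log2 -1.23 (adjusted p 0.0434), and was not called in the 6 libraries alone (0.0978). A second ACC oxidase (Cla97C02G043890) had 608, 98.5 and 956 TPM at 18 DAP, against 1404, 972 and 1200 TPM at 10 DAP (log2 -1.61 ± 0.53, adjusted p 0.022). Its highest 18 DAP library was just below its lowest 10 DAP library, and the call was lost in the 6 libraries alone (0.192) and without 18 DAP replicate 2 (log2 -0.63, 0.241), 10 DAP replicate 1 (0.0783) or 10 DAP replicate 3 (0.0517). An ACC oxidase 1-like gene (Cla97C07G133930) was the one ethylene gene that rose, with 313, 309.6 and 297 TPM at 18 DAP, against 106, 148 and 169 TPM at 10 DAP (log2 1.14 ± 0.33, adjusted p 0.011, and 0.0673 without 10 DAP replicate 1). It kept its call in the 6 libraries alone (0.020). An ethylene receptor (Cla97C11G217310) averaged 158 ± 48.8 TPM at 18 DAP and 258 ± 3.83 TPM at 10 DAP (log2 -0.75 ± 0.22, adjusted p 0.010), a call lost in the 6 libraries alone (0.0791) and without 18 DAP replicate 2 (log2 -0.47, 0.109). In all, 1 of 20 ethylene genes rose and 5 fell (5% and 25%, against 18.7% and 16.7% of all genes). Their median was log2 -0.22. Counts were 1 and 1 in the 6 libraries alone and without 18 DAP replicate 2. They were 0 and 3 without 10 DAP replicate 1, and 1 and 3 without 10 DAP replicate 3.

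Of 24 abscisic acid genes 3 rose and 9 fell (12.5% and 37.5%, against 18.7% and 16.7% of all genes). Their median was log2 -0.45. Counts were 1 and 4 in the 6 libraries alone, 2 and 5 without 18 DAP replicate 2, and 3 and 5 without 10 DAP replicate 1. A receptor gene, PYL8-like (Cla97C01G000570), had 12.8, 4.91 and 7.06 TPM at 18 DAP, against 34.5, 34.7 and 40.9 TPM at 10 DAP (log2 -2.11 ± 0.28, adjusted p 2.0e-05). Another abscisic acid receptor (Cla97C09G172410), chosen after its values were seen, averaged 266 ± 50.5 TPM at 18 DAP and 94.1 ± 44.6 TPM at 10 DAP (log2 1.57 ± 0.41, adjusted p 0.0060). The rising receptor was the more abundant at both ages. Abscisic stress-ripening protein 1 (Cla97C08G146160), a very abundant small protein of drying and ripening tissue that was also chosen after its values were seen, had 16533, 18359 and 25275 TPM at 18 DAP, against 24742, 31557 and 31340 TPM at 10 DAP, with overlapping groups (log2 -0.56 ± 0.24, adjusted p 0.078, and 0.0304 without 18 DAP replicate 3).

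Of 98 auxin genes 13 rose and 26 fell (13.3% and 26.5%, against 18.7% and 16.7% of all genes). Their median was log2 -0.23. Counts were 8 and 11 both in the 6 libraries alone and without 18 DAP replicate 2. They were 6 and 17 without 10 DAP replicate 1, and 5 and 24 without 18 DAP replicate 1. An auxin efflux carrier (Cla97C10G184680), which exports auxin from cells, had 9.06, 0.63 and 7.21 TPM at 18 DAP, against 73.6, 66.4 and 43.1 TPM at 10 DAP (log2 -3.56 ± 0.48, adjusted p 2.8e-05). An auxin response factor (Cla97C01G001810), of the DNA-binding regulators of the auxin response, had 212, 244 and 126 TPM at 18 DAP, against 28.5, 47.8 and 44.5 TPM at 10 DAP (log2 2.22 ± 0.33, adjusted p 6.2e-05). Of 41 cytokinin and two-component genes 2 rose and 9 fell (4.88% and 22%, against 18.7% and 16.7% of all genes). Their median was log2 -0.38, and without 18 DAP replicate 3 the counts were 4 and 12. A two-component response regulator (Cla97C03G052210) had 0.40, 0.15 and 0.59 TPM at 18 DAP, against 9.29, 9.57 and 10.6 TPM at 10 DAP (log2 -2.98 ± 0.30, adjusted p 1.1e-06). It was at 25.3 ± 8.98 TPM at 26 DAP, so the low level was seen at 18 DAP alone among these 3 ages.

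Division genes did not move together. Of 138 genes named for cyclins, mitosis and DNA replication 20 rose and 20 fell (median log2 0.11), shares of 14.5% each that lay below those of all genes. The counts were 8 and 14 without 18 DAP replicate 2, 31 and 24 without replicate 3, and 10 and 19 without replicate 1. They were 10 and 17 without 10 DAP replicate 1, and 12 and 18 without 10 DAP replicate 3. A cyclin (Cla97C02G037180) had 0.61, 0 and 1.52 TPM at 18 DAP, against 16.2, 6.78 and 8.38 TPM at 10 DAP (log2 -2.76 ± 0.35, adjusted p 1.6e-05). Cyclin-D1-1 (Cla97C05G107170), of the cyclins that open the cell cycle, averaged 0.240 ± 0.157 TPM at 18 DAP and 5.15 ± 2.24 TPM at 10 DAP (log2 -2.26 ± 0.29, adjusted p 1.8e-05). A kinesin-like motor protein (Cla97C08G150480) averaged 3.35 ± 2.60 TPM at 18 DAP and 31.3 ± 9.16 TPM at 10 DAP (log2 -3.08 ± 0.48, adjusted p 0.00011). DNA polymerase eta (Cla97C07G140000), a repair polymerase chosen after its values were seen, was among the rises (log2 1.16 ± 0.21, adjusted p 0.0003).

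Of 33 core and linker histones, the proteins that package newly made DNA, 2 rose and 4 fell (median log2 -0.17). Their shares were 6.06% and 12.1%, below the 18.7% and 16.7% of all genes. Without 18 DAP replicate 1, 18 DAP replicate 2 or 10 DAP replicate 3, 0 histones rose. Histone H2B (Cla97C02G046340) had 587, 653 and 636 TPM at 18 DAP, against 1018, 1214 and 938 TPM at 10 DAP (log2 -0.75 ± 0.18, adjusted p 0.0027). Histone H4 (Cla97C03G053190) had 79.2, 57.8 and 60.2 TPM at 18 DAP, against 110.3, 135 and 115 TPM at 10 DAP (log2 -0.87 ± 0.22, adjusted p 0.0045). In both genes the groups did not overlap, as in 44.9% of all tested genes. In clnor, 10 of the 33 histones fell and 0 rose over the same step (median log2 -0.91), while 3.1% and 4.57% of all genes did. Of 13 tubulins 4 rose and 4 fell (30.8% each, against 18.7% and 16.7% of all genes), with a median of log2 0.32. Tubulin alpha chain (Cla97C10G196230) averaged 545 ± 97.1 TPM at 18 DAP and 1360 ± 126 TPM at 10 DAP (log2 -1.33 ± 0.19, adjusted p 4.7e-05). A tubulin beta chain (Cla97C10G204950), chosen after its values were seen, had 460.0, 268 and 203 TPM at 18 DAP, against 62.1, 108 and 54.4 TPM at 10 DAP (log2 2.02 ± 0.50, adjusted p 0.0040). Of 203 ribosomal proteins 26 rose and 13 fell (median log2 0.06). These are 12.8% and 6.4%, both below the 18.7% and 16.7% of all genes. These counts were 7 and 7 without 18 DAP replicate 2, 32 and 11 without replicate 3, and 11 and 8 without replicate 1. They were 16 and 8 without 10 DAP replicate 1, 19 and 8 without 10 DAP replicate 2, 15 and 12 without 10 DAP replicate 3, and 11 and 8 in the 6 libraries alone. The sign of their median changed under upper-quartile scaling (log2 -0.004).

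Heat shock and heat factor genes made up the list with the highest share of rises, 35 of 77 (45.5%, against 18.7% of all genes), with 7 falls and a median of log2 0.61. Without 18 DAP replicate 2 there were 26 rises and 5 falls, without 18 DAP replicate 1 there were 33 and 3, and in the 6 libraries alone 27 and 4. A heat shock 70 kDa protein (Cla97C11G217390), a chaperone that holds unfolded proteins, had 188, 268 and 116 TPM at 18 DAP, against 16.7, 30.4 and 31.4 TPM at 10 DAP (log2 2.79 ± 0.38, adjusted p 3.0e-05), and 739.6 ± 258 TPM at 26 DAP. Heat shock 70 kDa protein 4 (Cla97C09G181410) had 303, 233 and 164 TPM at 18 DAP, against 36.6, 33.0 and 46 TPM at 10 DAP (log2 2.53 ± 0.40, adjusted p 0.00012), and 86.4 ± 28.6 TPM at 26 DAP. An 18.5 kDa class I heat shock protein-like gene (Cla97C03G051930), a small chaperone chosen after its values were seen, averaged 67.1 ± 2.13 TPM at 18 DAP and 13.9 ± 5.60 TPM at 10 DAP (log2 2.26 ± 0.37, adjusted p 0.00017). In none of the 3 did the groups overlap, as in 44.9% of all tested genes.

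Among transcription factors, 9 of 46 NAC genes rose and 8 fell (median log2 -0.28). The shares, 19.6% and 17.4%, were near the 18.7% and 16.7% of all genes. The counts were 7 and 3 without 18 DAP replicate 2, 9 and 12 without replicate 3, and 7 and 5 in the 6 libraries alone. NAC domain-containing protein 73-like (Cla97C03G059250) had 21.8, 48.4 and 16.2 TPM at 18 DAP, against 3.33, 5.58 and 5.91 TPM at 10 DAP (log2 2.21 ± 0.37, adjusted p 0.00021). NAC domain-containing protein 53-like (Cla97C08G150650) averaged 196 ± 34.8 TPM at 18 DAP and 93.7 ± 7.81 TPM at 10 DAP (log2 1.05 ± 0.18, adjusted p 0.00023). The more abundant of the rising NAC genes named here (Cla97C10G190580), chosen after its values were seen, averaged 453 ± 139.7 TPM at 18 DAP and 209 ± 53.9 TPM at 10 DAP (log2 1.11 ± 0.27, adjusted p 0.0036).

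Of 26 MADS-box genes 3 rose and 6 fell (11.5% and 23.1%, against 18.7% and 16.7% of all genes). Their median was log2 -0.02 and lay between -0.07 and 0.13 under the other scalings. Without 18 DAP replicate 2 the counts were 1 and 4. A pair of genes described as AGAMOUS, of the class that specifies carpels, went in opposite directions. One (Cla97C03G058570) had 391, 287 and 294 TPM at 18 DAP, against 831, 1306 and 975 TPM at 10 DAP (log2 -1.66 ± 0.21, adjusted p 1.6e-05). The other (Cla97C01G024020), chosen after its values were seen, had 249, 205 and 188 TPM at 18 DAP, against 104, 102 and 107 TPM at 10 DAP (log2 1.02 ± 0.25, adjusted p 0.0036). The 2 genes therefore stood closer in level at 18 DAP than at 10 DAP. MADS-box transcription factor 27 (Cla97C10G192870) averaged 1.30 ± 0.595 TPM at 18 DAP and 25.2 ± 1.66 TPM at 10 DAP (log2 -3.54 ± 0.46, adjusted p 2.0e-05).

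Of 70 AP2/ERF genes 4 rose and 18 fell (5.71% and 25.7%, against 18.7% and 16.7% of all genes). Their median was log2 -0.69. Counts were 2 and 8 without 18 DAP replicate 2, and 7 and 29 without 18 DAP replicate 3. They were 1 and 12 without 10 DAP replicate 1, and 2 and 19 without 10 DAP replicate 3. An ethylene-responsive transcription factor (Cla97C02G044900) had 10.6, 3.69 and 35.1 TPM at 18 DAP, against 139, 87.5 and 116 TPM at 10 DAP (log2 -3.18 ± 0.47, adjusted p 6.8e-05). Ethylene-responsive transcription factor 3 (Cla97C06G114420) averaged 81.0 ± 45.4 TPM at 18 DAP and 312 ± 55.2 TPM at 10 DAP (log2 -2.13 ± 0.37, adjusted p 0.00024). WRKY genes had 4 rises and 8 falls among 39 (10.3% and 20.5%, against 18.7% and 16.7% of all genes). Their median was log2 -0.42. Counts were 2 and 5 without 18 DAP replicate 2, and 4 and 15 without 18 DAP replicate 3. They were 3 and 3 without 10 DAP replicate 1, and 3 and 2 in the 6 libraries alone. WRKY transcription factor 15 (Cla97C02G027320) averaged 69.4 ± 2.66 TPM at 18 DAP and 32.7 ± 1.75 TPM at 10 DAP (log2 1.07 ± 0.19, adjusted p 0.00035). MYB genes had 9 rises and 20 falls among 69 (13% and 29%, against 18.7% and 16.7% of all genes). Their median was log2 -0.24. Counts were 4 and 16 without 18 DAP replicate 2, 5 and 19 without 18 DAP replicate 1, and 5 and 18 without 10 DAP replicate 1. A MYB/HD-like gene (Cla97C05G101190) averaged 1.43 ± 1.51 TPM at 18 DAP and 45.7 ± 26.4 TPM at 10 DAP (log2 -4.24 ± 0.59, adjusted p 3.6e-05). Of 12 bHLH genes 0 rose and 1 fell (0% and 8.33%, below the 18.7% and 16.7% of all genes). Their median was log2 -0.23, with 0 calls in the 6 libraries alone.

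Clock genes are the transcription regulators and their partners whose levels cycle through the day and set daily timing. The list of 16 was added, and its genes named, after values were seen. Its 6 rises and 7 falls were 37.5% and 43.8%, against 18.7% and 16.7% of all genes. The median lay near 0 (log2 -0.03). LHY (Cla97C06G111640), a morning regulator in Arabidopsis, had 316, 315 and 309 TPM at 18 DAP, against 30.3, 24.9 and 34.2 TPM at 10 DAP (log2 3.36 ± 0.47, adjusted p 3.6e-05). REVEILLE 8-like (Cla97C10G203850), a related regulator, had 51.9, 53.9 and 45.7 TPM at 18 DAP, against 4.30, 2.40 and 3.46 TPM at 10 DAP (log2 3.57 ± 0.53, adjusted p 6.6e-05). The 18 DAP libraries agreed closely for these genes, unlike for most of the genes above. At 26 DAP LHY averaged 15.2 ± 1.37 TPM and REVEILLE 8-like 2.69 ± 1.35 TPM (SD, n = 3), below their 10 DAP means. At 34 DAP the means were 138 and 7.65 TPM in the same order. LNK1 (Cla97C10G192390), a coactivator that works with REVEILLE proteins in Arabidopsis, averaged 55.6 ± 10.2 TPM at 18 DAP and 5.98 ± 1.27 TPM at 10 DAP (log2 3.02 ± 0.66, adjusted p 0.0017). LNK2 (Cla97C05G108980) gave log2 1.65 ± 0.43 (adjusted p 0.0054).

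The genes that fell included homologs of Arabidopsis genes with afternoon or evening peaks. EARLY FLOWERING 4-like (Cla97C07G132630) had 1.67, 0.33 and 0.88 TPM at 18 DAP, against 36.5, 72.1 and 43.6 TPM at 10 DAP (log2 -4.72 ± 0.44, adjusted p 2.9e-07). A flavin-binding kelch F-box gene (Cla97C07G133850), a blue light receptor class that times protein breakdown, had 5.37, 2.31 and 6.77 TPM at 18 DAP, against 106, 121 and 109.9 TPM at 10 DAP (log2 -4.37 ± 0.41, adjusted p 3.2e-07). Gigantea (Cla97C09G172950), a partner of such receptors, had 15, 14.2 and 11.6 TPM at 18 DAP, against 55.9, 50.5 and 51.6 TPM at 10 DAP (log2 -1.89 ± 0.25, adjusted p 2.0e-05). EARLY FLOWERING 3 (Cla97C08G160550) gave log2 -0.97 ± 0.24 (adjusted p 0.0039). At 26 DAP EARLY FLOWERING 4-like averaged 11.7 ± 5.34 TPM and the kelch gene 54.2 ± 9.51 TPM, between their 18 and 10 DAP means. Gigantea averaged 60.0 ± 2.27 TPM at 26 DAP, above its 10 DAP mean of 52.7 TPM. Glycine-rich RNA-binding protein 1-like (Cla97C11G211170), of a class that cycles daily in Arabidopsis and is no member of the list, had 795, 587 and 805 TPM at 18 DAP, against 6556, 7701 and 7485 TPM at 10 DAP (log2 -3.32 ± 0.34, adjusted p 1.2e-06).

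In clnor, 5 of the 16 clock genes rose and 4 fell over the same step, while 4.57% and 3.1% of all genes did. Among the clnor libraries at 10 DAP, 1 stood apart. LHY had 219.6, 226 and 321 TPM in clnor at 18 DAP, against 27.2, 24.4 and 155 TPM in clnor at 10 DAP. LNK1 had 68.9, 71.7 and 69.7 TPM in clnor at 18 DAP, against 4.20, 4.73 and 56.4 TPM in clnor at 10 DAP. For both genes replicate 3 of clnor at 10 DAP stood between the 18 DAP libraries and the other clnor 10 DAP libraries, which were at the level of WT at 10 DAP. The labels give no hour of harvest, and the part of harvest time in these or other differences was not tested.

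**Figure D4:**
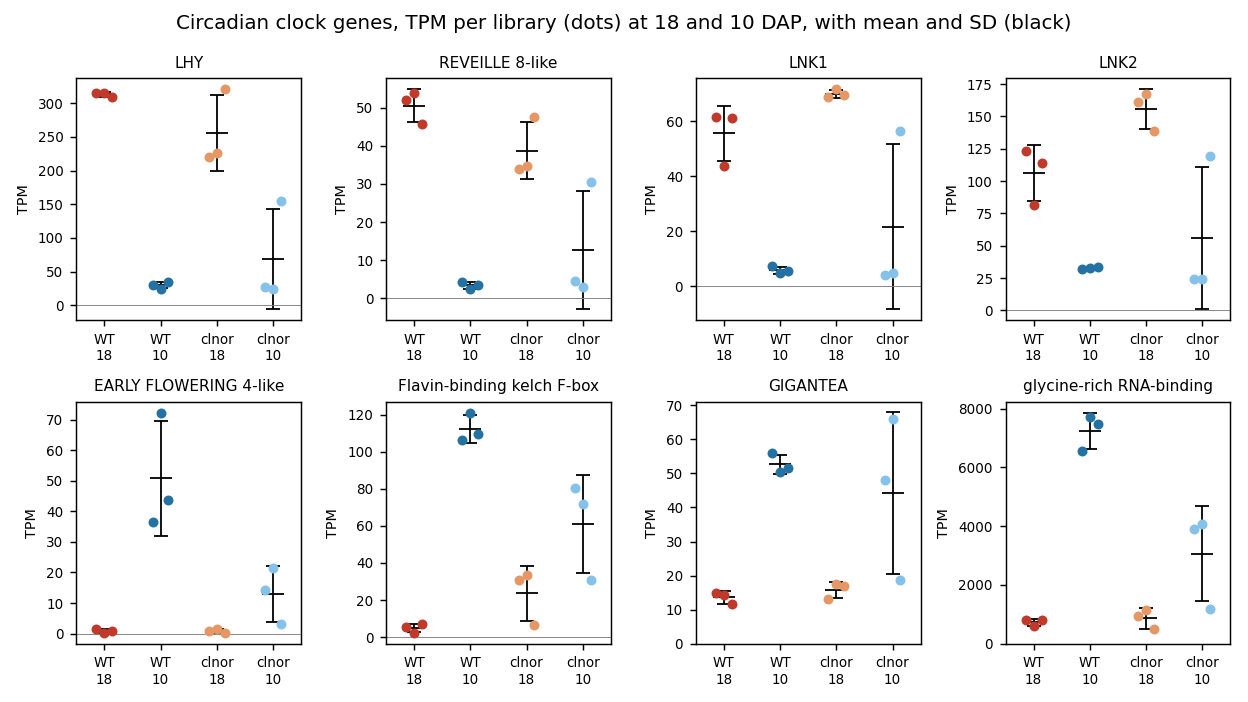
TPM (linear axis) of 7 clock genes and the glycine-rich RNA-binding gene in WT at 18 and 10 DAP and in clnor at 18 and 10 DAP, 1 point per library, with the mean and standard deviation in black. The WT groups do not overlap for the genes shown (LHY 309 to 316 TPM at 18 DAP, against 24.9 to 34.2 TPM at 10 DAP), and clnor 10 DAP replicate 3 lies far above the other clnor 10 DAP libraries for LHY (155 TPM) and LNK1 (56.4 TPM).

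Watermelon flesh is known for its citrulline, an amino acid made from ornithine. Of 18 genes of citrulline and arginine metabolism 1 rose and 5 fell (median log2 -0.02). Their shares were 5.56% and 27.8%, against 18.7% and 16.7% of all genes. Counts were 1 and 1 in the 6 libraries alone, and 1 and 3 without 18 DAP replicate 2 or 10 DAP replicate 1. Acetylornithine aminotransferase (Cla97C09G165420), which makes the precursor of ornithine, had 183, 109.8 and 123 TPM at 18 DAP, against 35.8, 60.5 and 54.4 TPM at 10 DAP (log2 1.44 ± 0.26, adjusted p 0.00033). N-acetylglutamate synthase (Cla97C01G016820), the first enzyme of that route, had 93.6, 92.0 and 83.7 TPM at 18 DAP, against 163, 207 and 193 TPM at 10 DAP (log2 -1.05 ± 0.21, adjusted p 0.00096). Argininosuccinate synthase (Cla97C06G127510), which uses citrulline up, had 322, 100.2 and 919 TPM at 18 DAP, against 2314, 990.2 and 1598 TPM at 10 DAP (log2 -2.31 ± 0.73, adjusted p 0.018). That call was lost in the 6 libraries alone (0.0855), without 18 DAP replicate 2 (log2 -1.5, 0.150) and without 10 DAP replicate 1 (0.0796). Argininosuccinate lyase (Cla97C11G220600), the next step, averaged 17.1 ± 3.16 TPM at 18 DAP and 13.7 ± 3.13 TPM at 10 DAP with overlapping groups (log2 0.30 ± 0.19, adjusted p 0.23).

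Proteinase inhibitors and pathogenesis-related proteins, the products of plant defence, had 5 rises and 27 falls among 56 (median log2 -0.86). Their shares were 8.93% and 48.2%, against 18.7% and 16.7% of all genes. Counts were 2 and 16 without 18 DAP replicate 2, and 1 and 18 without 10 DAP replicate 1. A thaumatin-like gene (Cla97C10G204510) had 0.81, 0 and 2.05 TPM at 18 DAP, against 14.2, 7.45 and 10.5 TPM at 10 DAP (log2 -2.69 ± 0.40, adjusted p 7.2e-05). Among the PR1 genes the direction differed. A pathogenesis-related protein 1-like gene (Cla97C02G034010) had 2458, 3741 and 1754 TPM at 18 DAP, against 276, 440.3 and 514 TPM at 10 DAP (log2 2.67 ± 0.85, adjusted p 0.019, with 0.0843 without 18 DAP replicate 2 and 0.0767 without 10 DAP replicate 1). Pathogenesis-related protein 1B (Cla97C02G034070), chosen after its values were seen, had 78.7, 10.3 and 41.8 TPM at 18 DAP, against 213, 758 and 269 TPM at 10 DAP (log2 -3.38 ± 0.66, adjusted p 0.00067). An aspartyl protease (Cla97C08G154840) had 17, 2.30 and 30.5 TPM at 18 DAP, against 225, 873 and 285 TPM at 10 DAP (log2 -4.96 ± 1.12, adjusted p 0.0020). Of 29 lipoxygenase and alcohol volatile genes 7 rose and 7 fell (24.1% each, against 18.7% and 16.7% of all genes). Their median was log2 0.15. Counts were 4 and 3 without 18 DAP replicate 2, and 3 and 5 without 10 DAP replicate 1.

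Flesh holds other tissues than its storage cells, and in bulk RNA fewer cells of a type and less RNA per cell cannot be told apart. Of 15 phloem marker genes 0 rose and 9 fell (0% and 60%, against 18.7% and 16.7% of all genes). Their median was log2 -1.78, and 6 fell both in the 6 libraries alone and without 18 DAP replicate 2. Of the 9, 7 are named for sieve element occlusion, a family whose members may share reads. The summed level of the list was 288.9, 145.4 and 572.4 TPM at 18 DAP, against 876.1, 465.9 and 653.7 TPM at 10 DAP, so the sums overlapped and replicate 2 was lowest. A SIEVE ELEMENT OCCLUSION B-like gene (Cla97C06G116220), for a protein of sieve tubes chosen after its values were seen, had 2.93, 0 and 4.15 TPM at 18 DAP, against 38.5, 22.9 and 32.2 TPM at 10 DAP (log2 -3.53 ± 0.61, adjusted p 0.00027). The called sugar transporters, xyloglucan enzymes and peroxidases were mostly lower in the same libraries, and the part of the phloem markers in those falls was not tested. The single xylem marker tested summed to 3.9, 0.2 and 3.1 TPM at 18 DAP, against 5.1, 2.8 and 4.8 TPM at 10 DAP, and was not called.

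Of 44 seed markers 9 rose and 7 fell (median log2 0.31), shares of 20.5% and 15.9% near the 18.7% and 16.7% of all genes. The counts were 7 and 4 without 18 DAP replicate 2, 11 and 10 without replicate 3, and 8 and 5 in the 6 libraries alone. The summed level of the list was higher in every 18 DAP library, with 7217.5, 9294.6 and 7952 TPM at 18 DAP, against 5834, 4310.6 and 4425.4 TPM at 10 DAP. An 11S globulin 2-like seed storage gene (Cla97C05G092030) had 1830, 5067 and 959 TPM at 18 DAP, against 14.3, 67.5 and 74.5 TPM at 10 DAP (log2 5.59 ± 1.46, adjusted p 0.0057). A late embryogenesis abundant protein group 8 gene (Cla97C01G016480) had 97.6, 390.4 and 63.9 TPM at 18 DAP, against 8.53, 14.1 and 20.8 TPM at 10 DAP (log2 3.21 ± 0.58, adjusted p 0.00036). A second 11S globulin (Cla97C06G116690) averaged 61.1 ± 21.7 TPM at 18 DAP and 19.6 ± 8.26 TPM at 10 DAP (log2 1.62 ± 0.34, adjusted p 0.0012). Both were chosen after their values were seen. The first globulin had replicate 2 highest and replicate 3 lowest at 18 DAP. This was also the order of the desiccation-related, CLE12-like, late embryogenesis abundant, gibberellin 20-oxidase and nodulin-like transporter genes described above. Of these, the late embryogenesis abundant gene is of a family counted among the seed markers. Phytoene synthase and carotenoid cleavage dioxygenase 1, which are not on the seed list, had that order too. Among all called genes without overlap, replicate 2 was farthest from 10 DAP for 64.3% and replicate 3 nearest for 71.5%. The part of seed tissue in any of these rises was not tested. Of 45 cuticle and lipid transfer genes, as markers of epidermis, 10 rose and 4 fell (median log2 -0.21). The share of rises, 22.2%, was near the 18.7% of all genes, and that of falls, 8.89%, lay below the 16.7%. Without 18 DAP replicate 2 the counts were 6 and 2. Their summed level overlapped, with 1179.5, 1069.4 and 1177.8 TPM at 18 DAP, against 1037.9, 1241.9 and 910.2 TPM at 10 DAP.

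The clnor fruits passed through the same ages in libraries that share none with WT. In clnor 1148 genes (7.67%) were called at 18 against 10 DAP, 684 higher (4.57%) and 464 lower (3.1%). Of the 5286 WT calls 4919 (93.1%) had the same sign in clnor, against 76.6% of all tested genes, and 938 were called in clnor with the same sign, which is 17.7% of the WT calls and 81.7% of the clnor calls. Genes called higher in WT had a median step of log2 0.80 in WT and 0.46 in clnor, and genes called lower in WT had -1.08 in WT and -0.44 in clnor. These medians were taken over genes chosen by their WT values and are a description only. In both clnor groups replicate 3 stood apart for several genes. The nodulin-like transporter had 11.7, 40.95 and 1666 TPM in replicates 1 to 3 of clnor at 18 DAP. The rising aquaporin (Cla97C04G075680) had 10.4, 30.0 and 706 TPM in those of clnor at 10 DAP. How far these libraries moved the shares and medians was not tested.

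The step itself was tested for a difference between genotypes (WT minus clnor), and 5 genes (0.0334%) passed, with 1552 at an unadjusted p below 0.05. In the 12 libraries of the 4 groups alone limma called 0, with 855 at an unadjusted p below 0.05. The count depended on 2 clnor libraries at 18 DAP, with 276 genes called without replicate 3 and 22 without replicate 1, and on WT 18 DAP replicate 3, with 27 without it. Phytoene synthase (Cla97C01G008760) had 21.8, 25.0 and 96.8 TPM in clnor at 18 DAP, against 25.8, 14.3 and 14.0 TPM in clnor at 10 DAP, with overlapping groups, and the difference between the WT and clnor steps did not pass (log2 0.96 ± 0.53, adjusted p 0.54). Replicate 3 of clnor at 18 DAP stood at the level of WT at 18 DAP and the other two at the level of 10 DAP. Sucrose phosphate synthase (Cla97C06G117750) rose in clnor too, with 46.5, 44.9 and 91.9 TPM at 18 DAP, against 2.61, 10.9 and 29.3 TPM at 10 DAP (log2 2.43, adjusted p 0.014). The xyloglucan endotransglucosylase/hydrolase with the largest fall in WT (Cla97C06G122600) had 351, 441 and 81.4 TPM in clnor at 18 DAP, against 1202, 844 and 115 TPM in clnor at 10 DAP (log2 -1.07, adjusted p 0.41), and the difference between the steps was log2 -4.28 ± 1.14 (adjusted p 0.24).

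**Figure D5:**
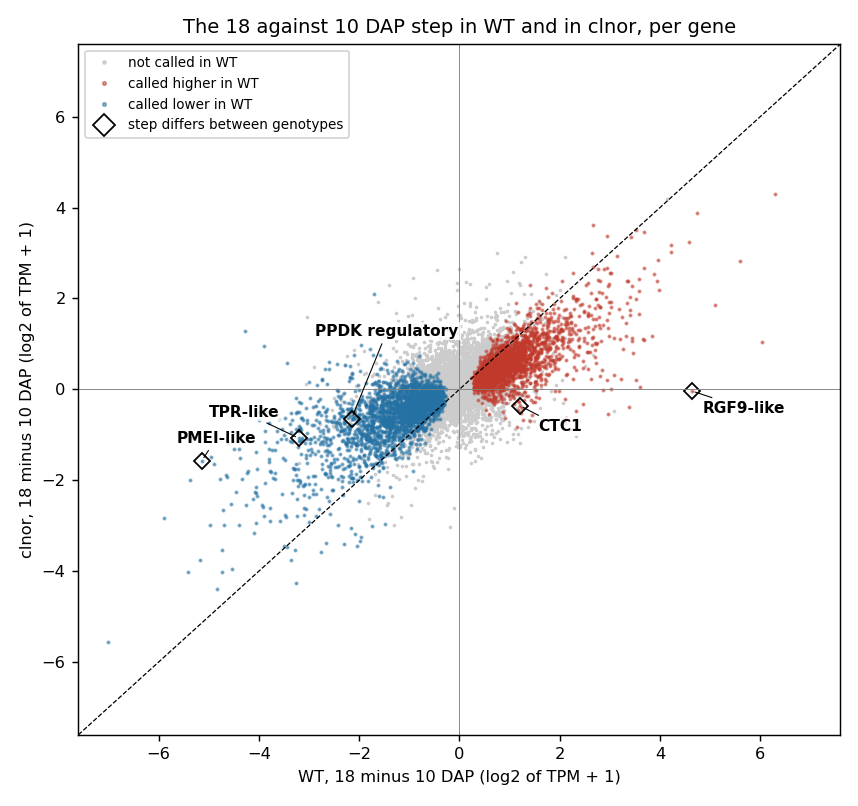
Log2 difference of 18 minus 10 DAP in WT (horizontal axis) and in clnor (vertical axis), both of log2(TPM + 1), 1 point per tested gene, coloured by its call in WT, with the 5 genes whose step differed between genotypes marked by diamonds and the line of equal steps dashed. Most genes called in WT (93.1%) have the same sign in both genotypes, and the marked genes lie away from the diagonal, such as the root meristem growth factor 9-like gene (4.63 in WT and -0.03 in clnor).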

How the data were processed

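RNA of WT and clnor flesh was extracted with Trizol, cleaned with an RNeasy kit with DNase I and sequenced from TruSeq libraries, per the labels' protocols, on a NovaSeq, per the series' design text. TopHat2, HISAT2, StringTie and Cufflinks were used, per the submitters' processing notes. Not given in the sources used here: versions, each tool's role, genome build, strand setting. Values in the deposited table were taken as TPM made by the authors, from the column sums, and 0 columns belong to other samples. Depth cannot be recovered from TPM, so no counting interval is given.

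Genes reaching 1 TPM in 3 or more of the WT libraries at 18 and 10 DAP were tested on log2(TPM + 1). A linear model over the 10 groups and 30 libraries (20 residual degrees of freedom) was fitted with limma 3.58.1 (trend and robust set) in R 4.3.3 with statmod 1.5.0, two-sided, with Benjamini-Hochberg adjustment over all tested genes and calls at an adjusted p below 0.05. The contrasts were 18 against 10 DAP in WT, in clnor, and the difference of both. The fit was also run on simulated data whose spread was the same in every group. The real spread was wider at 18 DAP than at 10 DAP, so that run does not show how well the fit did here. Replicate numbers did not pair the samples.

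The members and the 37 gene lists, made from search words in the gene descriptions, were chosen with earlier results of these data known, and 3 lists (clock, low oxygen, B-box) were added after values were seen. Genes were named by several rules. The 15 largest rises and falls in log2 and the 8 largest in TPM had to pass a filter. They were called, described and non-overlapping, with a higher group mean of at least 5 TPM. From each list came the 3 called genes with the smallest p, whatever their level or overlap. Any tested carotenoid, sugar, ethylene or citrulline gene could be named, called or not. Up to 6 called genes each way of the difference were added. Not every such gene is described, and genes outside these rules are marked. Alternatives changed the pseudocount, filter, scaling, libraries fitted, weights, block and fold threshold.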

Additional observations from a re-analysis of the deposited data

Results flagged for a closer look

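For 5 genes the change from 10 to 18 DAP differed between WT and clnor in limma's test of the difference itself, adjusted over all 14964 genes. Values are WT minus clnor steps in log2 with their standard errors.

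A gene of the small secreted root meristem growth factor peptides, 9-like (Cla97C02G027310), had 43.4, 49.4 and 17.7 TPM in WT at 18 DAP, against 0, 0 and 1.74 TPM in WT at 10 DAP. In clnor it had 0, 0 and 1.73 TPM at 18 DAP, against 1.93, 0 and 0 TPM at 10 DAP, so it rose in WT and stayed near 0 in clnor (difference 4.67 ± 0.80, adjusted p 0.018). The difference kept its sign but lost its call with a pseudocount of 0.1 (adjusted p 0.233), with weights by group (0.158) and without WT 18 DAP replicate 1 (0.0534), WT 18 DAP replicate 2 (0.102), WT 10 DAP replicate 1 (0.102), WT 10 DAP replicate 2 (0.073), clnor 18 DAP replicate 2 (0.101) or clnor 10 DAP replicate 1 (0.0643).

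The pectin methylesterase inhibitor-like gene (Cla97C05G089170) had 0, 0 and 0.18 TPM in WT at 18 DAP, against 39.2, 62.9 and 18.9 TPM in WT at 10 DAP. In clnor it had 0.78, 0.93 and 0.10 TPM at 18 DAP, against 7.44, 3.36 and 1.67 TPM at 10 DAP (difference -3.57 ± 0.50, adjusted p 0.0022, and 0.0992 with a pseudocount of 0.1). Both genotypes ended near 0, and the 10 DAP levels were higher in WT in every library.

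The pyruvate, phosphate dikinase regulatory protein gene (Cla97C03G056170), for an enzyme that switches that dikinase on and off, had 7.01, 6.66 and 4.82 TPM in WT at 18 DAP, against 23.1, 36.2 and 33.9 TPM in WT at 10 DAP. In clnor it had 10.2, 11.2 and 9.23 TPM at 18 DAP, against 17.1, 18.7 and 13.8 TPM at 10 DAP (difference -1.51 ± 0.21, adjusted p 0.0022). Neither genotype's groups overlapped.

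The CST complex subunit CTC1 gene (Cla97C05G101180), of a complex that protects chromosome ends, had 25.5, 22.6 and 22.7 TPM in WT at 18 DAP, against 8.58, 10.4 and 10.1 TPM in WT at 10 DAP. In clnor it had 10.0, 9.70 and 7.11 TPM at 18 DAP, against 12.9, 13.8 and 8.82 TPM at 10 DAP, with overlapping groups (difference 1.56 ± 0.23, adjusted p 0.0035).

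A tetratricopeptide repeat-like gene (Cla97C05G107930) had 7.02, 3.65 and 6.74 TPM in WT at 18 DAP, against 53.2, 62.8 and 64.0 TPM in WT at 10 DAP. In clnor it had 17.2, 21.5 and 9.71 TPM at 18 DAP, against 34.8, 51.2 and 21.0 TPM at 10 DAP (difference -2.13 ± 0.36, adjusted p 0.018). The call was lost without WT 18 DAP replicate 2 (adjusted p 0.102), WT 10 DAP replicate 2 (0.0695), WT 10 DAP replicate 3 (0.053) or clnor 18 DAP replicate 2 (0.101). In the 12 libraries of the 4 groups fitted alone none of the 5 differences passed (adjusted p 0.819 to 0.82).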

How the results depend on the processing

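The 5286 calls between 18 and 10 DAP in WT were 4577 to 5564 under the other pseudocounts, filters, scalings, the 15 WT libraries alone and weights by group, and the difference between the WT and clnor steps gave 4 to 6 genes under those run for it. Fitted on the 6 libraries alone there were 2571 calls, and limma called 0 genes for the difference in 12 libraries (855 at an unadjusted p below 0.05). A 2-fold threshold left 2322. Leaving out 1 library at a time gave 2855 to 6247 calls for WT and 3 to 276 genes for the difference. No paired design is given by the labels, and same-numbered libraries did not deviate together (correlations -0.118, 0.245 and -0.064). With a replicate block there were 5124 calls and 5 genes for the difference over 10 groups, and limma gave 1321 calls in the 6 libraries alone and 0 genes for the difference in 12 (662 at an unadjusted p below 0.05). Of the genes named, 0 reversed under any alternative. Most are called genes whose groups did not overlap, so leaving out a library could not reverse them. The lack of reversals therefore says little. Of the comparisons of a gene with an alternative, 2903 kept its call or its lack of one, 96 lost a call and 12 gained one. TPM keeps no depth, so how far depth limits genes at low level is unknown.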

Other observations

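Genes of the response to low oxygen were gathered, and named here, after their values were seen. In plants this response replaces respiration by fermentation when oxygen is short, and bulky fruit flesh is known to be low in oxygen. Of 38 tested genes 15 rose and 4 fell (39.5% and 10.5%, against 18.7% and 16.7% of all genes), with 13 and 2 without 18 DAP replicate 2 and 11 and 2 in the 6 libraries alone. Their summed level was 7337.9, 7170.1 and 8189.3 TPM at 18 DAP, against 4057.8, 3720.7 and 4832.4 TPM at 10 DAP. A LOB domain-containing protein 41-like gene (Cla97C06G124350), whose Arabidopsis counterpart is induced by low oxygen, had 114, 54.4 and 203 TPM at 18 DAP, against 10.3, 5.61 and 3.82 TPM at 10 DAP (log2 3.94 ± 0.51, adjusted p 1.8e-05). A second LOB domain-containing protein 41 gene (Cla97C05G093790) had 846, 708 and 945 TPM at 18 DAP, against 135, 208 and 199.5 TPM at 10 DAP (log2 2.21 ± 0.45, adjusted p 0.00086). Pyruvate decarboxylase (Cla97C10G205630), the first enzyme of ethanol fermentation, had 2165, 2500 and 1896 TPM at 18 DAP, against 296, 435 and 576 TPM at 10 DAP (log2 2.37 ± 0.65, adjusted p 0.0079). For none of the 3 genes, picked with their values known, did the groups overlap, as in 44.9% of all tested genes.

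An alcohol dehydrogenase (Cla97C09G172580), which completes that route, had 283, 206 and 391.9 TPM at 18 DAP, against 52.3, 64.7 and 56.4 TPM at 10 DAP (log2 2.28 ± 0.57, adjusted p 0.0043). A plant cysteine oxidase 2 gene (Cla97C10G197780), of the oxygen sensors of the plant cell, averaged 254 ± 38.7 TPM at 18 DAP and 107 ± 17.2 TPM at 10 DAP (log2 1.24 ± 0.31, adjusted p 0.0046). A hypoxia-responsive family gene (Cla97C03G067710) had 457, 629.9 and 379 TPM at 18 DAP, against 154, 155 and 156 TPM at 10 DAP (log2 1.62 ± 0.29, adjusted p 0.00038). Non-symbiotic hemoglobin 2 (Cla97C05G103160) went the other way, with 5.77, 7.09 and 8.66 TPM at 18 DAP, against 12.6, 27.1 and 19.6 TPM at 10 DAP (log2 -1.30 ± 0.38, adjusted p 0.011, and 0.0571 without 10 DAP replicate 2). In clnor 2 genes of the list rose and 1 fell, while 4.57% and 3.1% of all genes did. In clnor the second LOB domain gene (Cla97C05G093790) had 592, 684 and 502 TPM at 18 DAP, against 185, 156 and 753 TPM at 10 DAP, and the alcohol dehydrogenase (Cla97C09G172580) had 79.5, 108 and 299 TPM at 18 DAP, against 54.2, 56 and 295 TPM at 10 DAP. For these genes replicate 3 of clnor at 10 DAP thus stood far above the other two, and how far it lowered the count in clnor was not tested.

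B-box genes, zinc finger regulators of light responses, were likewise gathered after their values were seen. Of 27 tested, 10 rose and 5 fell (37% and 18.5%, against 18.7% and 16.7% of all genes). Their median was log2 0.06, and -0.002 under upper-quartile scaling. B-box zinc finger protein 21 (Cla97C02G028150) had 33.7, 56.4 and 14.2 TPM at 18 DAP, against 0.63, 2.04 and 1.94 TPM at 10 DAP (log2 3.67 ± 0.46, adjusted p 1.4e-05). B-box zinc finger protein 18-like (Cla97C07G135430) had 92.9, 126 and 87.1 TPM at 18 DAP, against 16.3, 16 and 16 TPM at 10 DAP (log2 2.57 ± 0.35, adjusted p 2.7e-05). B-box zinc finger protein 24 (Cla97C06G110200) had 43.1, 50.2 and 62.7 TPM at 18 DAP, against 12.9, 10.6 and 9.87 TPM at 10 DAP (log2 2.12 ± 0.28, adjusted p 1.9e-05). The B-box genes named all rose, and the 5 that fell are not named. Without 18 DAP replicate 2 or 10 DAP replicate 2 the counts were 7 and 5. Many B-box genes follow the time of day. The labels give no hour of harvest, and the part of harvest time in these differences was not tested.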
